A study of Mus musculus with 4 samples.

Results

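Marker genes of fibroblasts, endothelial cells, pericytes, immune cells and adipocytes were read in sorted basal mammary cells, to measure how much RNA of cells outside the epithelium the sort contained. The markers were 43 genes taken by symbol from the 34615 gene rows of the count files. They comprised 9 fibroblast, 13 endothelial, 7 pericyte, 10 immune and 4 adipocyte genes, and every one of them had a row.

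The cells came from mammary epithelium that was homozygous for the mTmG reporter at the Rosa locus, with either floxed miR-205 alleles (KO, genotype label miR205fl/flmTmGfl/fl cre+) or no such alleles by the design (WT, genotype label WTfl/flmTmGfl/fl cre+). Cells of both groups were treated with a Cre adenovirus, transplanted into SCID-Beige mice 3 weeks old and recovered 8 weeks later, so the WT cells had met Cre as well. A pool of 40 outgrowths is named in the design, without saying whether that number holds for each genotype, and GFP+ CD24+ CD49f-high basal cells were then sorted. There were 2 KO and 2 WT libraries, and the labels do not state that replicates were made from different animals or pools. The p-values therefore cover library-to-library spread alone, and that spread could be technical. SCID mice lack mature T and B cells and the beige mutation impairs natural killer cells, which leaves macrophages, fibroblasts, fat and vessels of the host around a transplant. The mTmG reporter makes Cre-exposed cells and their descendants green, and the labels name no reporter in the host.

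In a mammary outgrowth, the epithelial ducts lie in a fat pad. Fibroblasts there make the collagens and proteoglycans of the matrix, endothelial cells line the vessels, pericytes wrap the capillaries, macrophages patrol the ducts and adipocytes fill the remaining space. None of these cells belongs to the basal epithelial layer, but several of the genes used to mark them are also transcribed by contractile or matrix-producing epithelial cells, so a marker gene was read together with the others of its class.

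The microRNA whose gene is floxed in KO is printed here because its seed, bases 2 to 8 in capitals, defines the sites searched in the markers (RefSeq, GRCm38.p6, chr1:193507503-193507524, minus strand).
mmu-miR-205-5p: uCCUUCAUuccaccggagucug
Its gene Mir205 (ENSMUSG00000065533) had 0 counts in all 4 libraries, which gives no check of the labels. The letters ATGAAGG, which pair with the seed, occurred 7 times in the longest annotated 3′ UTR of 6 of the 43 markers (14.0%), against 2282 of 18205 protein-coding genes (12.5%). The markers with a match were Pdgfra, Lum and Mfap5 of the fibroblast list, Flt1 with 2 matches in the endothelial list, Rgs5 in the pericyte list and Csf1r in the immune list. The sites outside Csf1r are printed with 8 bases on each side from GENCODE M21 on GRCm38, with the seed match in capitals. A match is a string of letters and not a measured site.
Pdgfra, chr5:75196369-75196391, plus strand: gctgttgaATGAAGGctatgtgg
Lum, chr10:97572174-97572196, plus strand: tttaattaATGAAGGaaatgttt
Mfap5, chr6:122528452-122528474, plus strand: aaatgtggATGAAGGaatcgaaa
Flt1, chr5:147638438-147638460, minus strand: tgtgaattATGAAGGtccagcag
Flt1, chr5:147637376-147637398, minus strand: agagagaaATGAAGGatttaggg
Rgs5, chr1:169694681-169694703, plus strand: agcccagaATGAAGGagaatcaa

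Marker genes together held 0.1150% of gene counts in KO replicate 1 and 0.1161% in KO replicate 2, against 0.0914% in WT replicate 1 and 0.1217% in WT replicate 2. The 95% Clopper-Pearson intervals, which cover counting error only, were 0.1141 to 0.1158% and 0.1151 to 0.1171% in KO, and 0.0906 to 0.0922% and 0.1208 to 0.1226% in WT. On CPM (counts scaled to library size by TMM), the 43 genes summed to 1215.8 ± 167.0 CPM in KO and 1019.6 ± 225.4 CPM in WT (mean ± SD, n = 2 each). The KO and WT libraries overlapped, and both shares of KO lay between those of WT. The 12 measured basal markers summed to 12300.1 ± 1484.4 CPM in KO and 11118.7 ± 294.0 CPM in WT. Levels of different genes were compared per kilobase of exon, as the mean of the 4 libraries. There the median was 1.11 CPM per kb for the fibroblast, 1.66 for the endothelial, 1.53 for the pericyte, 0.38 for the immune and 0.0304 for the adipocyte markers, against 133.4 CPM per kb for the basal and 5.89 CPM per kb for the luminal markers. The basal keratin Krt5 stood at 650.9 CPM per kb and the luminal keratin Krt8 at 159.0 CPM per kb. The highest marker of the 5 classes, Fbn1, stood at 34.5 CPM per kb. Of these lists the basal one had the highest sum in every library, and markers of each outside class except the adipocyte one lay at a low but measurable level.

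**Figure D1:**
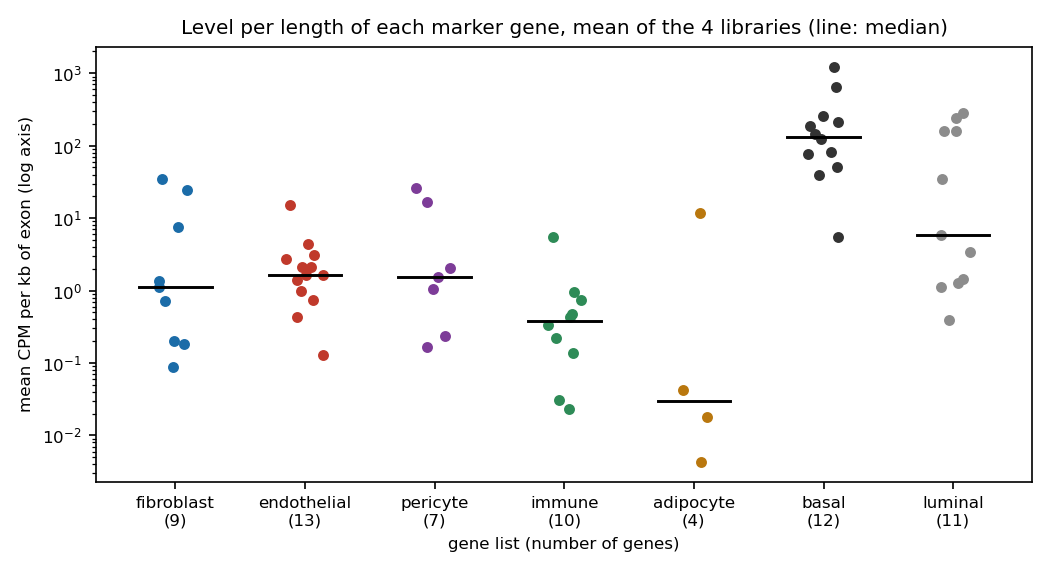
Level of each marker gene in CPM per kilobase of exon, mean of the 4 libraries, on a log axis, for the 5 outside classes and for the basal and luminal lists, with the number of genes in brackets and a line at the median. The median basal marker is at 133.4 CPM per kb and the median endothelial marker at 1.66, while Fbn1, Dcn, Mcam, Rgs5, Cdh5 and Fabp4 stand above the rest of their classes.

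Over all genes, the edgeR quasi-likelihood test of KO against WT called 0 of 15364 genes at an adjusted p under 0.05 (0%), where 147 (0.957%) had an unadjusted p under 0.05. Of the markers, 38 were tested and 5 were too low (Adgre1, C1qa, Adipoq, Plin1 and Cfd, at most 0.382 CPM in any library). None of the 38 was called by edgeR, by limma voom, which called 0 genes and gave 141 an unadjusted p under 0.05, or by DESeq2, which called 4 genes in all (0.026%). In edgeR 1 of the 38 had an unadjusted p under 0.05. In DESeq2 3 of the 38 had one, where 542 of the 15364 genes had one. In edgeR the smallest adjusted p of any gene was 0.9989, which was also the edgeR value of every tested marker. Both KO libraries lay above both WT libraries in 4 markers (13.2% of all tested genes did), namely Dcn, Fbln1, Mcam and Fabp4. Both lay below in 10 markers (19.2% of all tested genes did), none with a mean above 5.75 CPM. The median log2 fold change of KO over WT was -0.38 over the 38 markers and -0.14 over all tested genes. Without KO replicate 1, which leaves KO replicate 2 as the lone KO library and assumes that it varies like WT, edgeR called 5724 of 16392 genes (34.9%) and 14 of 39 markers. Of these 14, 4 were higher in KO (12.4% of all genes were) and 10 lower (22.5% of all genes were). Log2 fold changes below are those of the fit of all 4 libraries, with a standard error taken from its F statistic.

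KO replicate 2 stood apart from the other libraries in how many genes it held, 12679 with a count against 18897 in KO replicate 1 and 18139 and 18027 in WT. Of the 43 markers, 17 had 0 counts in KO replicate 2, against 2 in KO replicate 1 and 4 and 3 in the WT libraries. The limit set by 0 counts, taken as 3 counts in a library, was 0.0719 CPM in KO replicate 2, 0.0477 CPM in KO replicate 1, and 0.0532 and 0.0504 CPM in WT. This limit covers counting error only. Given the shares that follow, 0 counts in KO replicate 2 do not place a gene below it. Among genes at 1 to 5 CPM in WT, 4 of 11 markers had 0 counts in KO replicate 2 (36.4%), and so had 40.5% of all genes at that level. At 5 to 20 CPM in WT it was 1 of 9 markers (11.1%) and 8.16% of all genes, and at 20 to 100 CPM 0 of 9 markers and 0.173% of all genes. In the lowest band, 0.1 to 1 CPM, it was 9 of 10 markers (90%) and 67% of all genes. The part of this low detection in the differences below was not tested, and values of both KO libraries are given throughout. Bulk RNA does not tell fewer cells of a type from less RNA per cell.

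**Figure D2:**
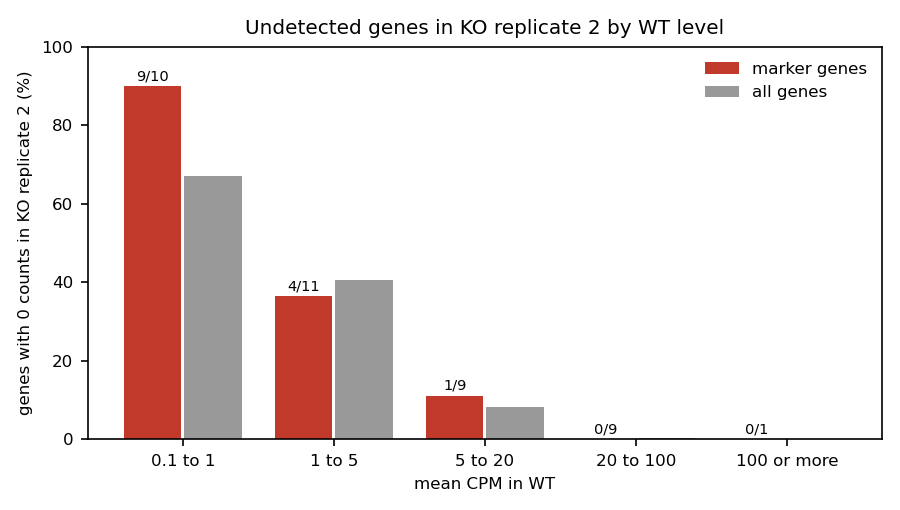
Share of genes with 0 counts in KO replicate 2 (y axis, %), by their mean CPM in WT (x axis), for the marker genes, with counts above the bars, and for all genes. Both shares fall with the WT level, from 90% and 67% at 0.1 to 1 CPM to 0% and 0.173% at 20 to 100 CPM.

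**Figure D3:**
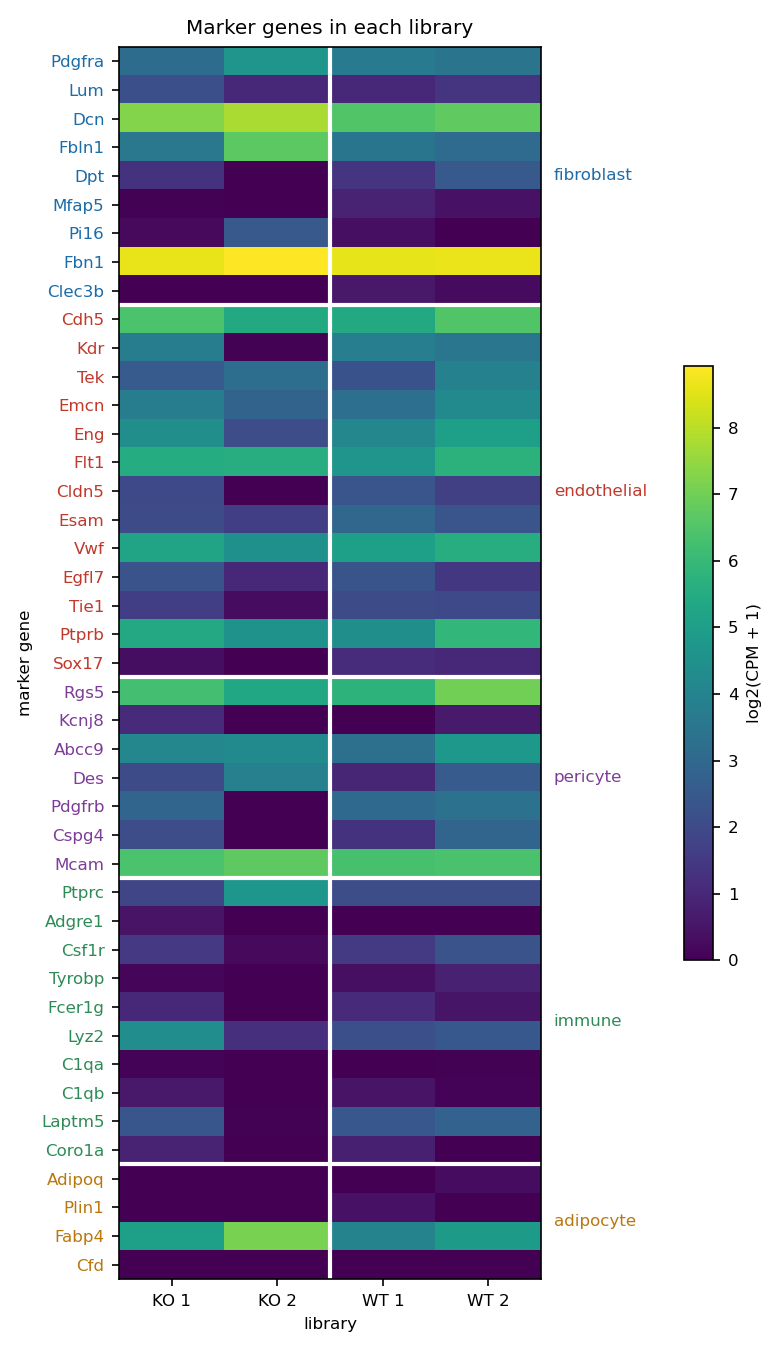
Level of each of the 43 marker genes in log2(CPM + 1) (colour) in the 2 KO and the 2 WT libraries (columns), ordered by cell class. Fbn1, Dcn, Mcam and Cdh5 are high in every library, most immune and adipocyte markers are near 0 throughout, and KO replicate 2 holds more dark squares (low values) than the others together with single high genes such as Fbln1, Ptprc and Fabp4.

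Fibroblast markers split into a few abundant matrix genes and others at lower levels, of which 2 were under 1 CPM in all libraries. Their sum was 576.0 and 840.7 CPM in KO, against 499.0 and 536.4 CPM in WT, a log2 ratio of the means of 0.45. An exact two-sided permutation test gave p = 0.33, the smallest value that 2 libraries against 2 can reach. Fbn1 alone made up 68.3% of the summed level. Without it the log2 ratio was 1.11, and without KO replicate 2 the ratio of the whole list was 0.15.

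Fbn1 (ENSMUSG00000027204), the fibrillin of elastic microfibrils, had 399.0 and 486.8 CPM in KO, against 383.6 and 406.6 CPM in WT. Its libraries overlapped, and the log2 fold change was 0.16 ± 0.20 (SE). It varied by 1.27 times between its highest and lowest library. Dcn (ENSMUSG00000019929), the collagen-binding proteoglycan decorin, had 153.2 and 221.2 CPM in KO, against 89.4 and 105.5 CPM in WT. Both KO libraries were above both WT libraries, with a log2 fold change of 0.94 ± 0.29 and an unadjusted p of 0.02207 in edgeR, which did not pass over all genes (adjusted p = 0.9989). Dcn was the 1 marker with an unadjusted p under 0.05, where 0.592% of all tested genes had one and were higher in KO, and 0 markers had one and were lower (0.364% of all tested genes). Leaving out each library in turn gave 0.65 to 1.18, 0.65 without KO replicate 2.

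Fbln1 (ENSMUSG00000006369), the matrix glycoprotein fibulin-1, had 10.8 and 102.6 CPM in KO, against 10.1 and 7.69 CPM in WT. The high value belonged to KO replicate 2, and KO replicate 1 lay next to WT. The log2 fold change was 2.67 ± 1.09, and 0.28 without KO replicate 2. Pdgfra, the platelet-derived growth factor receptor of fibroblasts, had 7.90 and 24.4 CPM in KO, against 11.6 and 9.79 CPM in WT. The KO libraries lay on either side of WT, with a log2 fold change of 0.59 ± 0.80 that was -0.43 without KO replicate 2.

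The remaining fibroblast genes were low, with a mean of at most 1.92 CPM (Dpt). Lum, the proteoglycan lumican, had 3.51 and 1.01 CPM in KO, against 0.993 and 1.60 CPM in WT. Dpt, the matrix protein dermatopontin, had 1.48 and 0 CPM in KO, against 1.51 and 4.69 CPM in WT. Pi16, a marker of adventitial fibroblasts, had 0.159 and 4.62 CPM in KO, against 0.302 and 0 CPM in WT. These 3 genes did not stay at 1 CPM in every library. Mfap5, a microfibril glycoprotein, had 3 and 0 counts in KO, against 48 and 21 counts in WT. Clec3b, which encodes tetranectin, had 1 and 0 counts in KO, against 30 and 11 counts in WT. Both genes were under 1 CPM in all libraries.

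Other matrix and mesenchymal genes had more negative than positive values, where the fibroblast markers had 6 positive and 3 negative log2 fold changes with a median of 0.59. Of 19 measured genes of this list 6 had a positive and 13 a negative log2 fold change, with a median of -0.28, and 0 passed over all genes. KO replicate 2 was the lowest library for 12 of the 19. It was also the lowest for 67.2% of all genes at 1 to 5 CPM in WT, falling to 30.8% at 100 CPM or more. The difference between the lists was not tested. Their sum was 2819.6 ± 228.8 CPM in KO and 2988.4 ± 139.9 CPM in WT. Postn, the matricellular protein periostin, led with 2099.0 and 1811.4 CPM in KO, against 2128.5 and 1929.1 CPM in WT. At a mean of 228.9 CPM per kb, Postn stood above the basal median of 133.4 CPM per kb. Col14a1, a fibril-associated collagen, had 301.6 and 315.4 CPM in KO, against 408.2 and 418.3 CPM in WT. Mmp2, a gelatinase, had 170.3 and 179.3 CPM in KO, against 196.8 and 127.9 CPM in WT. Col5a1, a chain of the minor fibrillar type V collagen, had 77.3 and 68.9 CPM in KO, against 93.7 and 94.8 CPM in WT. By contrast Col1a2, a chain of the type I collagen that fibroblasts make in bulk, had 20.9 and 30.9 CPM in KO, against 28.9 and 29.4 CPM in WT. It was named after its values were seen, and so was Col6a1, the 1 gene of these 19 with an unadjusted p under 0.05 (0.02794, adjusted p = 0.9989, edgeR), at 75.6 and 131.8 CPM in KO and 47.1 and 46.4 CPM in WT.

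Of the 13 endothelial markers, 9 reached 1 CPM in every library. All 13 reached 1 CPM in both WT libraries, 12 did in KO replicate 1 and 9 in KO replicate 2. Their sum was 267.7 and 153.8 CPM in KO, against 179.8 and 335.3 CPM in WT. The range of the KO libraries overlapped that of WT, and the means, at a log2 ratio of -0.29, differed by less than the SD of either genotype, 80.6 CPM in KO and 109.9 CPM in WT (exact permutation p = 0.667). Of the 13 log2 fold changes 12 were negative, with a median of -0.56, where 8795 of all 15364 tested genes were negative with a median of -0.14. Without KO replicate 2 the count was 8 of 13 negative with a median of -0.13, and without WT replicate 2 it was 8 of 13 with a median of -0.49. The ratio of the sums was 0.06 without KO replicate 2 and 0.23 without WT replicate 2.

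Cdh5 (ENSMUSG00000031871), the vascular cadherin that joins endothelial cells, had 83.1 and 42.1 CPM in KO, against 42.0 and 89.9 CPM in WT. Each genotype held one high and one low library, and the log2 fold change was -0.08 ± 0.54. Ptprb (ENSMUSG00000020154), the endothelial phosphatase that acts on this cadherin, had 40.8 and 23.0 CPM in KO, against 20.6 and 59.3 CPM in WT, a log2 fold change of -0.32 ± 0.66. Both WT values lay outside the range of KO.

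Flt1 (ENSMUSG00000029648), a receptor for vascular endothelial growth factor, had 45.2 and 45.9 CPM in KO, against 24 and 53.0 CPM in WT. Its KO libraries were alike and lay within the WT range, with a log2 fold change of 0.24 ± 0.50. It is also the marker with 2 of the seed matches printed above. Kdr, the main signalling receptor for the same growth factor, had 12.3 and 0.0479 CPM in KO, against 13.2 and 10.3 CPM in WT. The low value was 2 counts in KO replicate 2, the library in which Flt1 stood at 1917 counts.

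Vwf (ENSMUSG00000001930), the clotting factor stored in endothelial granules, had 36.4 and 21.3 CPM in KO, against 32.0 and 46.2 CPM in WT, a log2 fold change of -0.44 ± 0.49. Eng, a coreceptor for the TGF-beta family, had 20.3 and 3.28 CPM in KO, against 16.6 and 31.9 CPM in WT. The lowest value of both was in KO replicate 2, and the log2 fold change of Eng was -1.04 ± 1.0, or -0.25 without that library. Tek and Tie1 encode receptors of the angiopoietin pathway. Tek had 4.85 and 8.46 CPM in KO, against 3.81 and 14.2 CPM in WT. Tie1 had 2.15 and 0.216 CPM in KO, against 3.19 and 2.92 CPM in WT. The libraries overlapped for Tek, and for Tie1 both KO values were below WT.

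Emcn, a surface mucin of capillaries and veins, had 12.3 and 6.16 CPM in KO, against 8.58 and 18.5 CPM in WT, and its libraries overlapped. The junction genes Cldn5 and Esam, the secreted factor gene Egfl7 and the transcription factor gene Sox17 all had means under 5 CPM. Cldn5 and Sox17 had 0 counts in KO replicate 2. Esam and Sox17, like Tie1, had both KO libraries below both WT libraries, with unadjusted p-values of 0.3985, 0.2662 and 0.4378 in edgeR.

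The starts of Flt1 and Eng are printed as examples of promoters of the vascular genes, from 250 bases before to 50 after the RefSeq start on GRCm38.p6. Capitals mark CNGGAA on either strand. These letters contain GGAA, the core bound by ETS factors, the family that includes ERG in endothelial cells. The base before GGAA was left free, and GGAA outside this pattern stays in small letters, so the capitals do not mark every possible ETS core. CNGGAA was found in 7 of the 8 endothelial markers with a listed promoter (87.5%), and in 21 of 28 markers of all classes (75%). It was also found in 5 of 6 immune, 3 of 3 adipocyte, 4 of 6 pericyte and 2 of 5 fibroblast markers. Of all 27025 promoters 61.5% had it, and a match is a description and not a binding site.
Flt1, chr5:147725962-147726261, minus strand: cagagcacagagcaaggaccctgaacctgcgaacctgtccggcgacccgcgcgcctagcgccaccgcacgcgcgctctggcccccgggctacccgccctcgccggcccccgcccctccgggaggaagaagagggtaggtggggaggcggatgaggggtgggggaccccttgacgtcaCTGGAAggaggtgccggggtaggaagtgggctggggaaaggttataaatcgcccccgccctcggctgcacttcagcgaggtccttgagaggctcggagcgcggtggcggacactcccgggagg
Eng, chr2:32646345-32646644, plus strand: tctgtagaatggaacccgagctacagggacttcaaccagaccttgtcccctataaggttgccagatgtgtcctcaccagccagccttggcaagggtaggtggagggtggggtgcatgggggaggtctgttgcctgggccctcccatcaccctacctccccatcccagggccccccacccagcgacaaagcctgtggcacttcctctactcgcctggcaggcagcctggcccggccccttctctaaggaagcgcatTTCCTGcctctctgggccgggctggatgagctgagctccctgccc

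Other endothelial genes were split in KO replicate 2, which was the lowest library for 6 of 13 measured genes and the highest for 6. Across the bands of WT level, it was the lowest for 30.8 to 67.2% of all genes and the highest for 13.8 to 50.3%. Of the 13, 9 had a positive log2 fold change, with a median of 0.24, and 0 passed over all genes. Their sum was 139.4 and 297.5 CPM in KO, against 98.7 and 191.4 CPM in WT, so that KO replicate 2 had the highest sum of this list and the lowest of the 13 markers. Cd93, a surface lectin of endothelial and myeloid cells, led the list with 64.6 and 186.4 CPM in KO, against 45.9 and 98.5 CPM in WT. Sox7, a transcription factor of endothelial and other cells, had 21.9 and 56.9 CPM in KO, against 15.4 and 20.7 CPM in WT. Erg, the ETS factor, was lowest in KO replicate 2 instead, with 17.4 and 14.5 CPM in KO, against 16.8 and 35.7 CPM in WT. Sox18, Myct1, Mmrn2 and Gpihbp1, named after their values were seen, had 0 counts in KO replicate 2, and Aplnr had 7 counts there. Robo4, a roundabout receptor of vessels, had 5.58 and 17.7 CPM in KO, against 2.25 and 7.96 CPM in WT. Of the lymphatic genes, Lyve1 had 1.57 and 0 CPM in KO, against 3.8 and 1.75 CPM in WT, and Prox1 had 4.36 and 2.25 CPM in KO, against 3.05 and 8.55 CPM in WT. Reln, the extracellular glycoprotein reelin and the third measured lymphatic gene, had 309.9 and 613.4 CPM in KO, against 238.8 and 322.8 CPM in WT. It held 98.3% of the summed level of the lymphatic list. KO replicate 2 was the highest library for Reln and the lowest for Lyve1 and Prox1.

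Pericyte markers held one steady gene and several that were higher in WT replicate 2 than in WT replicate 1. Their sum was 190.2 and 174.1 CPM in KO, against 150.9 and 259.8 CPM in WT. The KO libraries lay inside the WT range, with a log2 ratio of -0.17 (exact permutation p = 1) that was 0.27 without WT replicate 2. Mcam (ENSMUSG00000032135), an adhesion molecule of pericytes and endothelium, made up 44.8% of the summed level and had 83.6 and 103.0 CPM in KO, against 78.6 and 82.2 CPM in WT. Its log2 fold change was 0.21 ± 0.27, and its highest and lowest libraries differed by 1.31 times.

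Rgs5 (ENSMUSG00000026678), a G protein regulator of capillary pericytes, had 75.9 and 39.5 CPM in KO, against 53.6 and 130.4 CPM in WT, a log2 fold change of -0.67 ± 0.57. WT replicate 2 was the highest library and KO replicate 2 the lowest, and without WT replicate 2 the log2 fold change was 0.11. Abcc9 and Kcnj8 encode the subunits of a potassium channel of these cells. Abcc9 had 16.4 and 17.8 CPM in KO, against 8.83 and 26.1 CPM in WT, with KO inside the WT range. Kcnj8 had 71 and 0 counts in KO, against 1 and 33 counts in WT. Des, the intermediate filament desmin, had 3.24 and 13.9 CPM in KO, against 0.94 and 4.91 CPM in WT. Pdgfrb, the receptor that recruits pericytes to vessels, had 6.58 and 0 CPM in KO, against 7.36 and 9.04 CPM in WT. Cspg4, the NG2 proteoglycan, had 3.31 and 0 CPM in KO, against 1.47 and 6.55 CPM in WT. Apart from KO replicate 2, where it was 0, Pdgfrb thus stayed between 6.58 and 9.04 CPM.

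Of 6 tested genes in the list of other pericyte genes, 5 had a negative log2 fold change, with a median of -0.69. Steap4, a metalloreductase, had 88.3 and 19.6 CPM in KO, against 97.4 and 62.1 CPM in WT, and Anpep, an aminopeptidase also found on other cells, had 41.0 and 9.01 CPM in KO, against 46.8 and 41.7 CPM in WT. Gucy1a1, a subunit of soluble guanylate cyclase, had 7.52 and 0.839 CPM in KO, against 8.11 and 18.6 CPM in WT. Notch3, the Notch receptor of mural cells, went the other way with 7.82 and 51.0 CPM in KO, against 8.73 and 18.7 CPM in WT. KO replicate 2 was the lowest library for Steap4, Anpep and Gucy1a1 and the highest for Notch3.

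Many endothelial and pericyte markers differed between the 2 WT libraries, and no test compares them with other lists. WT replicate 2 was at 1.5 times WT replicate 1 or more in 6 of the 12 endothelial markers and 4 of the 6 pericyte markers at a mean of 1 CPM or more, against 18.4% of 9926 genes at a mean of 1 to 100 CPM. The ratio was 2.14 for Cdh5, 2.88 for Ptprb, 2.21 for Flt1, 3.72 for Tek, 2.43 for Rgs5 and 2.96 for Abcc9. Esam, Egfl7, Cldn5, Kdr and Tie1 went the other way, with ratios of 0.628, 0.439, 0.543, 0.779 and 0.916. In the list of other endothelial genes it was 7 of 11, among other pericyte genes 2 of 5, among other fibroblast genes 6 of 17, among luminal markers 5 of 11 and among basal markers 0 of 12. The median log2 ratio of WT replicate 2 to WT replicate 1 was 0.10 for the other pericyte genes, against 1.36 for the pericyte markers. In KO, the ratio of replicate 2 to replicate 1 was 0.507 for Cdh5, 0.565 for Ptprb and 0.52 for Rgs5. It was 1.02 for Flt1, 1.74 for Tek and 1.08 for Abcc9. The steady genes had ratios of 1.06 (Fbn1) and 1.05 (Mcam) in WT, and 1.22 and 1.23 in KO.

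**Figure D4:**
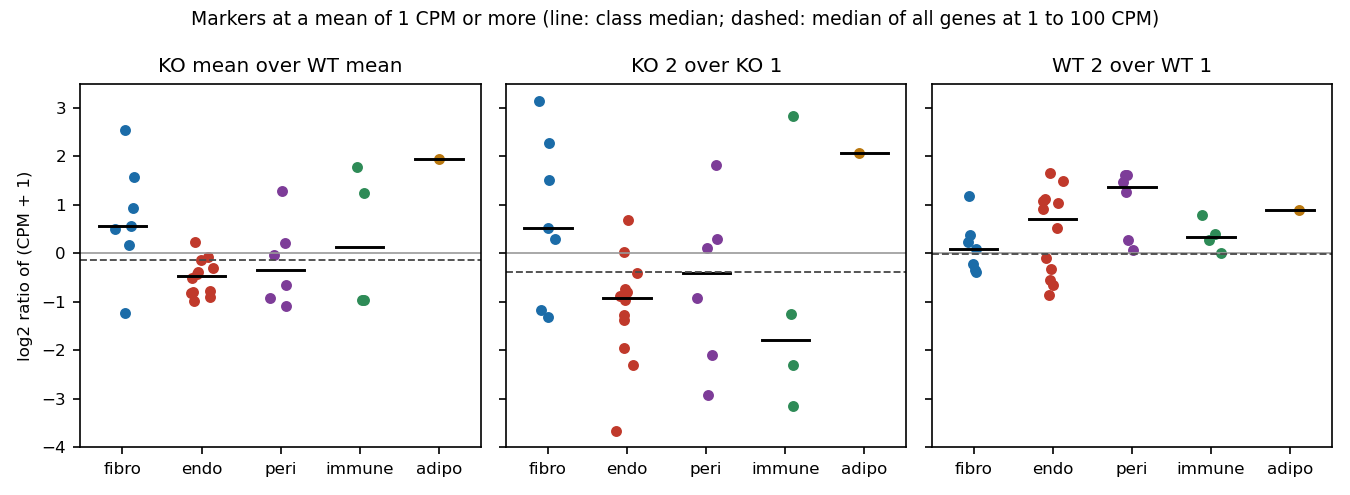
Log2 ratio of (CPM + 1) for each marker at a mean of 1 CPM or more, by cell class, for the KO mean over the WT mean, KO replicate 2 over KO replicate 1 and WT replicate 2 over WT replicate 1, with a line at the class median and a dashed line at the median of all genes at 1 to 100 CPM (-0.14, -0.39 and -0.02). The endothelial median is -0.47, -0.93 and 0.71, and the fibroblast median is 0.55, 0.53 and 0.08.

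Immune markers were low, and 5 of their 10 genes were under 1 CPM in all libraries. The 10 genes summed to 31.6 and 26.6 CPM in KO, against 15.4 and 18.9 CPM in WT. Both KO libraries were above both WT libraries, with a log2 ratio of 0.76 and the smallest exact permutation p of the design, 0.33. A different gene made up most of the sum in each KO library. Without Ptprc, the leading gene, the log2 ratio was 0.14. The median log2 ratio of (CPM + 1) over the 10 genes was 0.03, a scale on which genes far under 1 CPM lie near 0. Of the 8 tested genes 4 had a positive and 4 a negative log2 fold change, with a median of -0.18.

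Ptprc (ENSMUSG00000026395), the CD45 phosphatase of all leukocytes, had 2.69 and 25 CPM in KO, against 3.32 and 3.33 CPM in WT. The high value was KO replicate 2 alone, the log2 fold change was 2.06 ± 1.26, and without that library it was -0.30. In the same library Laptm5, a lysosomal protein of leukocytes, had 2 counts, and Tyrobp, Fcer1g and Coro1a, which encode the signalling adaptors and the actin-binding coronin of leukocytes, had 0 counts. Lyz2, the lysozyme of macrophages and neutrophils, had 20 and 1.37 CPM in KO, against 3.49 and 4.44 CPM in WT. Its high value was KO replicate 1 alone, with a log2 fold change of 1.43 ± 1.4 that was -1.54 without it. Reads of Lyz2 may be shared with its near-identical neighbour Lyz1, so this count is uncertain.

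Laptm5 had 4.18 and 0.0479 CPM in KO, against 4.31 and 5.93 CPM in WT. Csf1r, the growth factor receptor of macrophages, had 1.80 and 0.168 CPM in KO, against 1.84 and 3.91 CPM in WT. Both genes had both KO libraries below both WT libraries, KO replicate 1 only narrowly. Adgre1, which encodes F4/80 of tissue macrophages, was nearly absent, at 24 and 0 counts in KO and 0 and 1 in WT. C1qa, a chain of complement C1q, had 4 and 0 counts in KO and 0 and 2 in WT, and C1qb had 32 and 0 counts in KO and 22 and 3 in WT. Tyrobp had 6 and 0 counts in KO and 16 and 45 in WT, Fcer1g had 66 and 0 counts in KO and 61 and 26 in WT, and Coro1a had 51 and 0 counts in KO and 40 and 1 in WT.

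Among other myeloid genes 3 of 14 tested had a positive log2 fold change, with a median of -0.58, and 0 passed over all genes. Cd74, the invariant chain of MHC class II, had 71.9 and 289.1 CPM in KO, against 56.1 and 136.4 CPM in WT. The class II gene H2-Aa had 15.3 and 6.13 CPM in KO, against 5.18 and 19.0 CPM in WT, so that it was low in KO replicate 2 where Cd74 was highest. Cd14, the endotoxin coreceptor, had 14.2 and 6.88 CPM in KO, against 12.2 and 33.7 CPM in WT, and Lcp1, the leukocyte plastin, had 7.12 and 5.39 CPM in KO, against 8.30 and 14.9 CPM in WT. Cd3d and Cd3g were named after their values were seen. Of 16 measured T, B and natural killer cell genes, 12 were under 1 CPM in all libraries. Trbc2, a constant region of the T cell receptor beta chain, had the highest mean of the list, with 17.5 and 0 CPM in KO, against 17.4 and 15 CPM in WT, while Cd3g and Cd3d had 0 counts throughout. Cd3e had 0 and 2.99 CPM in KO, against 0.763 and 0.353 CPM in WT. Cd4, a coreceptor of helper T cells, had 0.636 and 0 CPM in KO, against 0.0709 and 1.86 CPM in WT. Ighm, the heavy chain of IgM, had 22 and 0 counts in KO, against 844 and 103 counts in WT.

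Adipocyte markers consisted of 1 gene in practice. Fabp4 (ENSMUSG00000062515), a fatty acid carrier of adipocytes that capillary endothelium also makes, held 99.7% of the summed level, with 32.2 and 138.7 CPM in KO, against 14.8 and 28.3 CPM in WT. Both KO libraries were above both WT libraries, KO replicate 1 by a small margin, and the log2 fold change was 1.99 ± 0.80 with an unadjusted p of 0.05481 in edgeR (adjusted p = 0.9989). Without KO replicate 2 it was 0.58. The hormone gene Adipoq had 0 and 0 counts in KO, against 0 and 14 counts in WT. Plin1, the coat protein of the lipid droplet, had 0 and 0 counts in KO, against 19 and 0 counts in WT, and Cfd, which encodes adipsin, had 1 count in KO replicate 1 and 0 elsewhere. Fabp4 was thus measured in libraries in which the 3 other adipocyte markers were at or near 0.

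Of the 9 tested genes among other adipocyte genes, 4 had a positive and 5 a negative log2 fold change, with a median of -0.14. Those of highest mean CPM were Cd36, a fatty acid transporter also present on capillaries, with 45.7 and 27.9 CPM in KO, against 15.8 and 53.3 CPM in WT, and Acsl1, a fatty acid activating enzyme, with 36.1 and 20.9 CPM in KO, against 32.1 and 39.9 CPM in WT. Lipe, the hormone-sensitive lipase, had 20.9 and 28.8 CPM in KO, against 18 and 14.3 CPM in WT. Cebpa, a transcription factor of fat and other tissues, had 9.64 and 19.3 CPM in KO, against 10.7 and 6.94 CPM in WT. The 4 measured red blood cell genes were at most 1.65 CPM in any library (Alas2 in WT replicate 2). Of the nerve and muscle genes, the neural crest transcription factor gene Sox10, which mammary cells also express, had 68.1 and 44.3 CPM in KO, against 71.5 and 80.6 CPM in WT, and Mbp, a myelin protein gene, had 101.1 and 50.9 CPM in KO, against 72.4 and 95.1 CPM in WT.

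**Figure D5:**
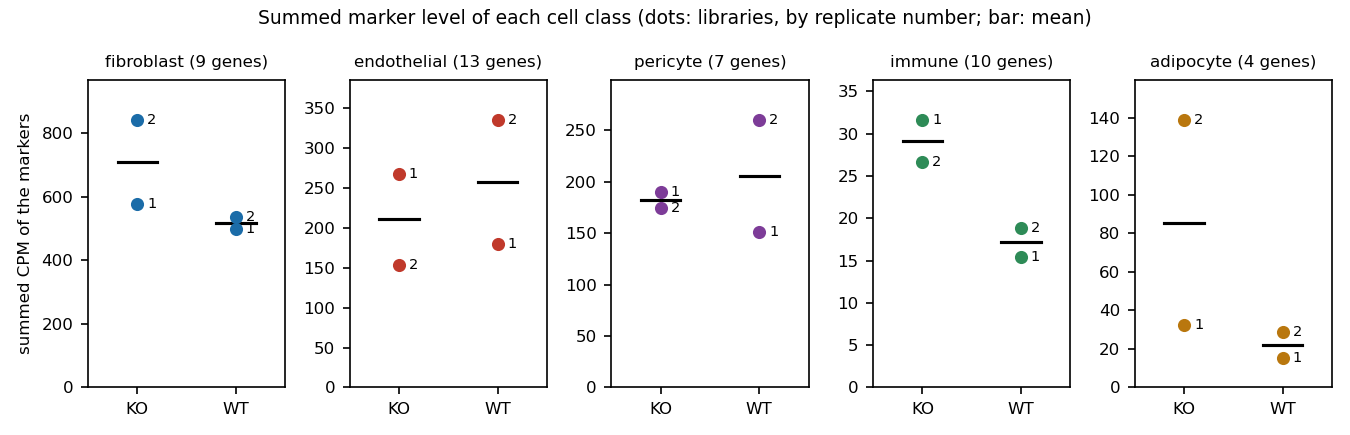
Summed CPM of the markers of each cell class in each library (dots, numbered by replicate), KO left of WT, with a bar at the mean and each y axis starting at 0. KO and WT overlap for the endothelial and pericyte classes, and do not for the fibroblast, immune and adipocyte classes, whose KO values are 576.0 and 840.7, 31.6 and 26.6, and 32.2 and 138.7 CPM.

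The 6 markers with a seed match for miR-205-5p, listed with the printed sites, had log2 fold changes of both signs. These were 0.59 ± 0.80 (SE) for Pdgfra, 0.80 ± 1.47 for Lum and 0.24 ± 0.50 for Flt1. The negative ones were -4.47 ± 2.36 for Mfap5, -0.67 ± 0.57 for Rgs5 and -1.55 ± 1.70 for Csf1r. None of the 6 had an unadjusted p under 0.05 in edgeR. Mfap5 and Csf1r had 0 and 7 counts in KO replicate 2. Relative to the WT mean, KO replicate 1 and KO replicate 2 lay on opposite sides of WT for Pdgfra and for Lum, on the log2 scale of CPM + 1.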

How the data were processed

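RNA of GFP+ basal cells from 2 KO and 2 WT libraries was extracted with PicoPure and sequenced after NuGEN preparation, per the labels' protocols. Per the submitters' processing notes, TopHat2 2.02, HTSeq and the mouse builds NCBIM37 and mm9 were used; annotation release, strand setting and overlap rule were not given in the sources used here. The deposited values are raw read counts per Ensembl gene, and 5 summary rows stayed out of library sizes (57.59 to 61.52% of reads fell in no gene and 0.71 to 0.79% were ambiguous). Gene counts per library were 60030932 and 47953972 in KO and 53067076 and 57650462 in WT. Symbols and exon lengths came from GENCODE M21, which matched 86.9% of rows and 98.6% of counts. KO was compared with WT by edgeR 4.0.16 (filterByExpr, TMM, quasi-likelihood test, Benjamini-Hochberg adjustment over all tested genes) in R 4.3.3. The script was tested on simulated data, where recovery of changed genes was required only at a spread below that of these data. Alternatives were DESeq2 1.42.0, limma 3.58.1 voom, other scalings and filters, a replicate block and each library left out. Class sums were tested by exact permutation over libraries. All 43 markers were named, and up to 4 genes of highest mean CPM from each of 11 other lists (148 genes, 128 with a row), plus exceptions marked in the text. The markers and lists were chosen with earlier results of these data known.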

Additional observations from a re-analysis of the deposited data

How the results depend on the processing

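The counts of called genes depended on the libraries kept. Leaving out each library in turn gave 0 to 5724 called genes and 0 to 14 called markers. The high ends came without KO replicate 1, and the cause was not tested. DESeq2 called 4 genes. With the replicate number as a block (replicate block), edgeR called 0 genes and 79 had an unadjusted p under 0.05. Same-numbered libraries did not deviate together (correlation 0.00973), so the numbers were not taken as pairs, and the class log2 ratios under the block were 0.43 (fibroblast), -0.28 (endothelial), -0.12 (pericyte), 0.76 (immune) and 1.69 (adipocyte).

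Leaving out single libraries gave class log2 ratios of 0.15 to 0.70 (fibroblast), -0.74 to 0.23 (endothelial), -0.51 to 0.27 (pericyte), 0.62 to 0.92 (immune) and 0.56 to 2.67 (adipocyte). Without the leading marker the log2 ratio was 1.11 for fibroblast and 0.14 for immune markers. The median log2 ratio of (CPM + 1) over markers was 0.03 for immune and -0.07 for adipocyte markers, by construction a measure of the other genes. The adipocyte class without Fabp4 was not run, since its other 3 genes held 1 count in KO and 33 in WT.

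Of 154 fold changes of 14 markers under an alternative, 144 kept their direction and 10 reversed. Cdh5 was 0.00 under limma voom. Leaving out single libraries gave -0.43 to 1.19 for Pdgfra, -0.65 to 0.58 for Cdh5, -0.22 to 0.92 for Flt1, -0.89 to 0.63 for Ptprb, -1.23 to 0.11 for Rgs5, -0.30 to 2.91 for Ptprc and -1.54 to 2.34 for Lyz2. The causes were not tested. With 2 libraries a genotype and a biological coefficient of variation of 0.932, no marker passed the edgeR test over all genes with all 4 libraries in it.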
